A study of Homo sapiens with 8 samples.

Results

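The DNAJ co-chaperone family, also called the J-domain or HSP40 proteins, was followed in human aortic endothelial cells treated with estradiol. Members were taken by symbol: all genes of the table named DNAJA, DNAJB or DNAJC followed by a number only, leaving out DNAJB1 and DNAJB9. This gave 40 genes of 34415, with 4 in subfamily A, 10 in subfamily B and 26 in subfamily C. RNA of TeloHAEC, an aortic endothelial line immortalised with telomerase, was sequenced as 4 estradiol libraries and 4 control libraries. All 8 were labelled wild type and had palmitic acid, a saturated fatty acid, in the medium, so no library shows the family without palmitic acid. The treatment field of the labels names palmitic acid for the estradiol samples without naming estradiol, and the groups were therefore taken from the sample titles. The sources used here give neither doses nor exposure time. The data come from a single line, and nothing in the labels says that the replicates were separate cultures. The p-values thus measure the spread between these libraries only, which may be technical.

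J-domain proteins bring clients to HSP70 chaperones and stimulate HSP70 to hydrolyse ATP, after which HSP70 holds the client until a nucleotide exchange factor releases it. Subfamily A proteins have a zinc-finger region beside the J domain, subfamily B proteins have a glycine- and phenylalanine-rich stretch without the zinc finger, and subfamily C gathers proteins that share little besides the J domain. Members work in the cytosol, the endoplasmic reticulum (ER), mitochondria, endosomes and the nucleus. Several are induced by heat shock or by unfolded proteins in the ER.

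Levels were deposited as FPKM (fragments per kilobase of transcript, scaled to library size), which is a scale per length. Each library held between 33421051 and 39899258 recovered reads. Of 12 endothelial markers, 10 reached a mean of 1 FPKM, with CDH5 at 125 ± 15.2 FPKM in estradiol libraries and 129 ± 19.5 FPKM in control libraries (SD, n = 4 each), while VWF stood at 0.284 FPKM in estradiol libraries and 0.309 FPKM in control libraries and EMCN at 0.283 FPKM in estradiol libraries and 0.278 FPKM in control libraries. Of 8 macrophage markers and 6 fibroblast markers, 0 reached 1 FPKM. Of 6 smooth muscle markers, MYH11, CNN1 and DES did not reach it, with DES at 0 in all libraries. The other 3 did, with SMTN averaging 12.5 FPKM, ACTA2 11.8 FPKM and TAGLN 7.26 FPKM over all libraries. Among epithelial markers 4 of 6 did, with a summed level of 83.5 to 113 FPKM in estradiol libraries and 81.8 to 126 FPKM in control libraries, mostly KRT18 and KRT19, while EPCAM and CDH1 averaged under 0.01 FPKM in both groups. Estradiol library 4 and control library 3 stood apart from the other 6 libraries, and the labels name no batch for them. Results that turn on these 2 libraries are therefore also given without them.

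The family was broadly expressed. A mean of 1 FPKM over the 8 libraries, the level required for testing, was reached by 36 of the 40 members: all 4 of subfamily A, 7 of 10 in subfamily B and 25 of 26 in subfamily C. Over the whole table it was reached by 10720 of 34415 genes. At least 10 FPKM was reached by 66.7% of these 36 members, against 46.2% of the 10720 genes tested. All 4 members of subfamily A did so, with 85.7% of those tested in subfamily B and 56.0% in subfamily C. The median level of a tested member was 26.5 FPKM in subfamily A, 32.9 FPKM in subfamily B and 13.1 FPKM in subfamily C, against 8.84 FPKM over all genes tested. Together the 40 members made up 0.329% to 0.388% of all FPKM in the estradiol libraries and 0.312% to 0.376% in the control libraries.

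The sum was uneven, with 38.6% of it in 2 genes. DNAJB11, an ER-lumen co-chaperone of the HSP70 protein BiP, was highest, with a mean of 240.3 FPKM over all 8 libraries. DNAJA1, a farnesylated cytosolic protein, followed with 210.0 FPKM. DNAJC3, the ER-lumen protein also known as p58IPK, came next with 72.7 FPKM. DNAJA1 made up 74.4% of the summed level of subfamily A and DNAJB11 55.9% of that of subfamily B, whereas DNAJC3 made up only 16.0% of that of subfamily C. The 25 tested genes of subfamily C spread from 1.05 to 72.7 FPKM.

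**Figure D1:**
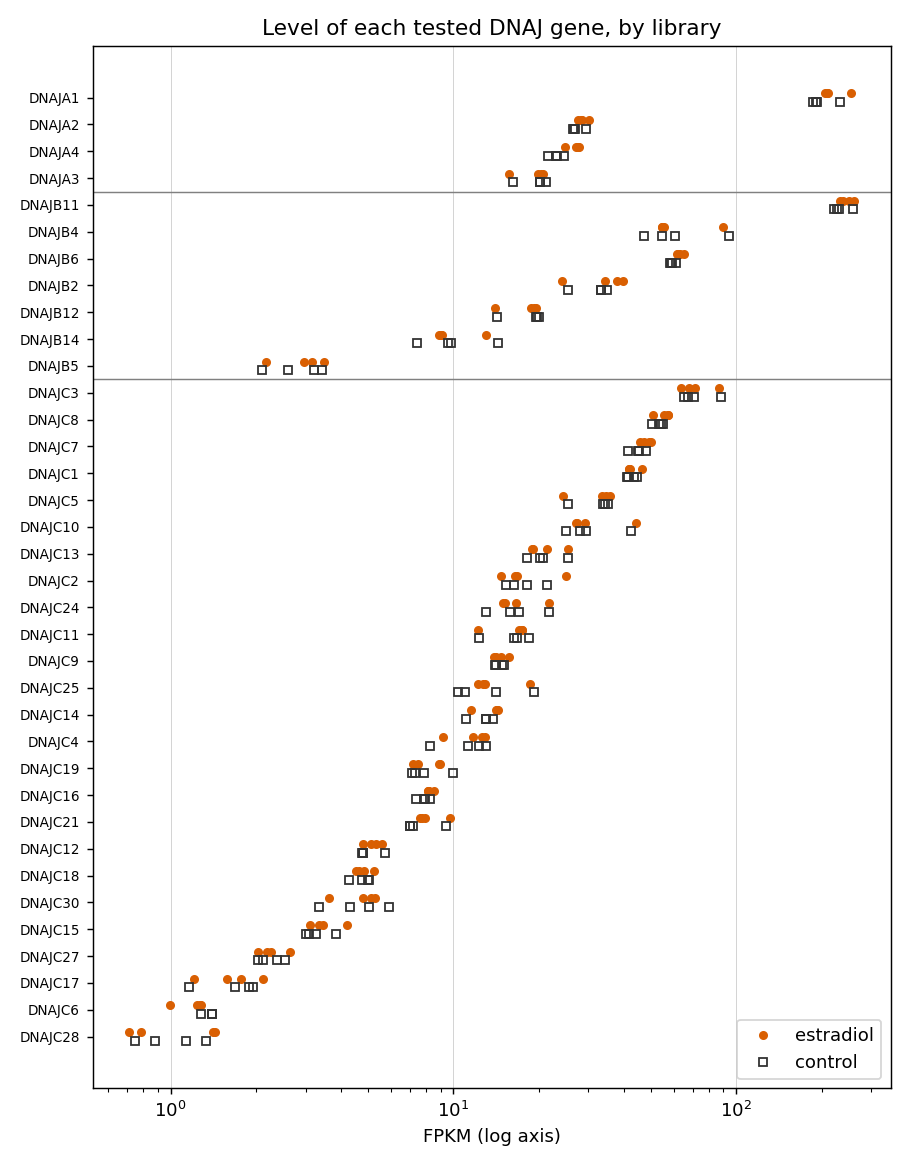
Level of each of the 36 tested DNAJ genes in every library, in FPKM on a log axis, ordered by mean level within subfamilies A (top), B and C (bottom). Filled circles are estradiol libraries and open squares control libraries. The groups overlap for all genes except DNAJA4, DNAJB6 and DNAJC6, and DNAJA1 and DNAJB11 stand above all other members.

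No member passed the test between estradiol and control libraries. With limma on log2(FPKM + 1) and Benjamini-Hochberg adjustment, 0 of 36 members had an adjusted p under 0.05, against 0 of 10720 genes (0.0%). The smallest adjusted p of any gene was 0.999989. At an unadjusted p under 0.05 there was 1 member, DNAJA4, among 26 genes (0.243% of those tested). This is well under the share of 0.05 that chance alone would give, so the p-values of this fit run high. Without estradiol library 4 and control library 3 the share was 3.88% (416 genes). The absence of calls therefore does not show that levels were equal. Limma-voom on recovered reads also called 0 members. In bulk RNA such as this, fewer cells of a type and less RNA per cell cannot be told apart.

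The 95% intervals of the members' log2 fold changes had a median half-width of 0.27 (0.21 in subfamily A, 0.32 in B and 0.27 in C), against 0.28 over all genes tested. Across the 36 members the intervals ran from -0.50 at the lowest to 0.51 at the highest.

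**Figure D2:**
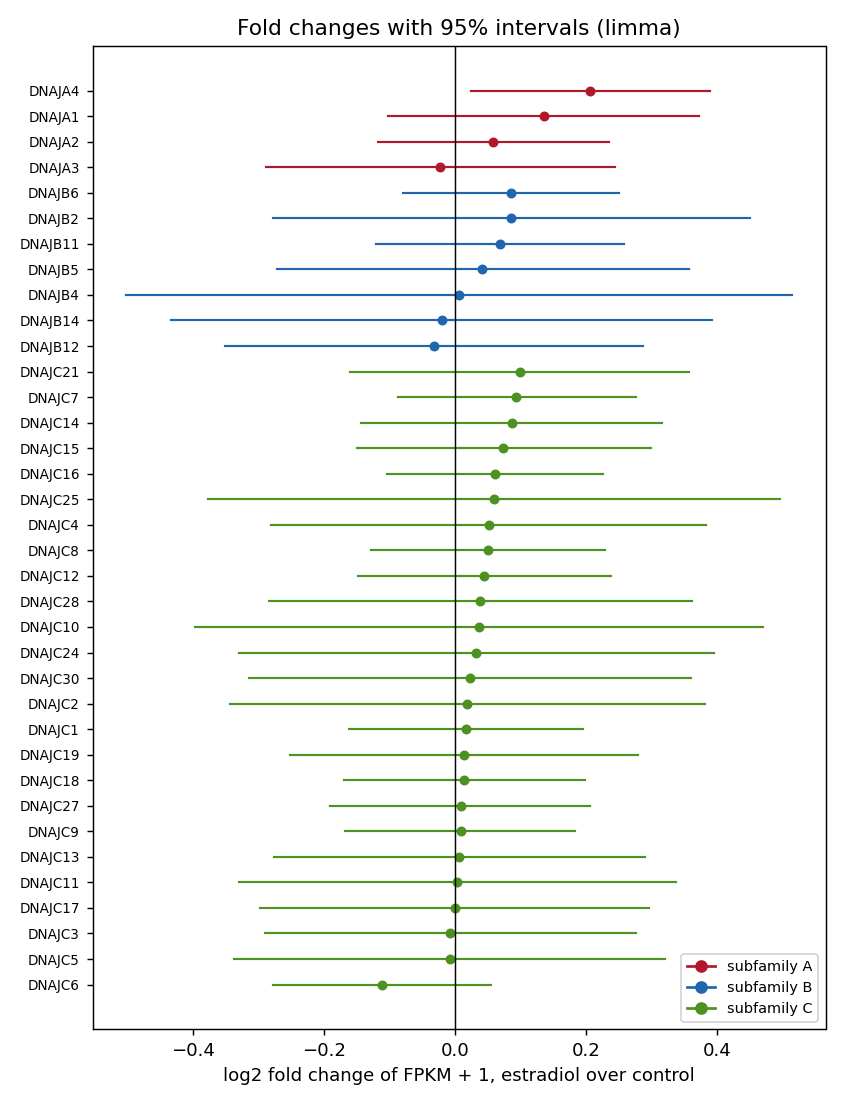
Log2 fold change of FPKM + 1, estradiol over control, for the 36 tested DNAJ genes, coloured by subfamily. Points are limma estimates and lines their 95% intervals. Only the interval of DNAJA4 leaves out 0, and the intervals of DNAJB4 and DNAJC25 are among the widest.

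Most estimates lay slightly above 0. The log2 fold change was positive for 29 of 36 members (80.6%), against 49.5% of all genes tested. By subfamily the counts were 3 of 4 in A, 5 of 7 in B and 21 of 25 in C. The median log2 fold change was 0.097 in subfamily A, 0.041 in subfamily B and 0.022 in subfamily C, and 0.034 over all 36 members, against -0.000471 over all genes. Without estradiol library 4 and control library 3, 26 of 36 members were positive (72.2%), against 48.1% of genes, and the medians were 0.10 in A, 0.046 in B and 0.007 in C, against -0.003 over all genes. These counts describe genes measured in the same libraries, which are not independent of each other.

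Estradiol library 4 set against control library 3 is a description only, from a single library a group. These libraries were picked because they stand apart, and the members share them, so matching signs are no independent repeat of the contrast. In this pair the median log2 difference was 0.083 in subfamily A, -0.045 in subfamily B and 0.042 in subfamily C, against 0.011 over all genes. The sign matched that in the other 6 libraries for 22 of 36 members (61.1%), against 45.0% of genes. All 4 members of subfamily A matched, against 3 of 7 in B and 15 of 25 in C. Both differences were above 0 for 18 of 36 members, against 23.7% of genes.

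Over all 8 libraries the difference in summed level was slightly above the SD within the groups for subfamily A. It was below that SD for subfamilies B and C. Without the 2 libraries that stand apart, it was above the SD for subfamilies A and B. Subfamily A summed to 282, 285, 286 and 325 FPKM in the estradiol libraries, against 257, 263, 299 and 262 FPKM in the control libraries. Control library 3 overlaps the estradiol range, and without it and estradiol library 4 the sums were 284 ± 2.38 FPKM in estradiol libraries and 261 ± 3.44 FPKM in control libraries (SD, n = 3 each). Subfamily B summed to 438 ± 19.2 FPKM in estradiol libraries and 422 ± 31.7 FPKM in control libraries, and subfamily C to 458 ± 29.1 FPKM in estradiol libraries and 448 ± 23.2 FPKM in control libraries (SD, n = 4 each). Without the 2 libraries that stand apart, subfamily B summed to 431 ± 17.0 FPKM in estradiol libraries and 406 ± 1.38 FPKM in control libraries, with no overlap, and subfamily C to 445 ± 13.2 FPKM in estradiol libraries and 437 ± 2.11 FPKM in control libraries, with overlap (SD, n = 3 each). All 40 members together then summed to 1160.1 ± 5.25 FPKM in estradiol libraries and 1103 ± 1.67 FPKM in control libraries (SD, n = 3 each), also without overlap. How often sums of other gene sets separate in this way was not computed. As a share of the family's own sum, subfamily A took 24.4%, 24.5%, 24.7% and 25.3% in the estradiol libraries, against 23.3%, 23.8%, 23.9% and 23.8% in the control libraries. This share is mostly set by DNAJA1, whose own level overlaps between the groups. The groups of the share do not overlap, including the libraries that stand apart, but the margin is narrow (24.4% against 23.9%). How often such shares separate for other gene sets was not computed either. The shares of subfamilies B and C overlapped: subfamily B took 35.7% to 38.6% in estradiol libraries and 36.7% to 37.5% in control libraries, and subfamily C 36.9% to 39.3% in estradiol libraries and 38.6% to 39.8% in control libraries.

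Subfamily A held the members with the lowest p for higher levels. DNAJA4, a cytosolic member, had 27.6, 27.7, 27.2 and 24.8 FPKM in the estradiol libraries, against 23.1, 24.5, 21.6 and 23.3 FPKM in the control libraries. The lowest estradiol library, number 4, stood just above the highest control library, so the groups did not overlap. The mean was 26.8 ± 1.37 FPKM in estradiol libraries and 23.1 ± 1.18 FPKM in control libraries (SD, n = 4 each), a log2 fold change of 0.21 ± 0.081 (SE) with an unadjusted limma p of 0.0305 that does not survive adjustment. Without the 2 libraries it was 0.21 ± 0.045 with an unadjusted limma p of 0.00131 and an adjusted p of 0.992. With the trend on GC content removed it was 0.20. In the reference annotation, exons of DNAJA4 overlap genes on the opposite strand, and the sources used here do not say whether reads were counted by strand.

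DNAJA1 had 206, 209, 210.0 and 254 FPKM in the estradiol libraries, against 186, 192, 232 and 191 FPKM in the control libraries. The fourth estradiol library and the third control library are the high ones in their groups, and the groups overlap through control library 3. The log2 fold change was 0.14 ± 0.11 (SE), with an unadjusted limma p of 0.233. Without those 2 libraries the groups did not overlap, at 208 ± 2.18 FPKM in estradiol libraries and 189.7 ± 2.94 FPKM in control libraries (SD, n = 3 each). The log2 fold change there was again 0.14, now with an SE of 0.041, an unadjusted limma p of 0.00995 and an adjusted p of 0.992.

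DNAJA2, the other abundant cytosolic member, differed less. It had 28.2, 27.5, 28.5 and 30.2 FPKM in the estradiol libraries, against 26.9, 26.5, 29.5 and 26.7 FPKM in the control libraries. The groups overlap through control library 3, and the log2 fold change was 0.058 ± 0.079 (SE; unadjusted limma p 0.477). DNAJA3, the mitochondrial member known as Tid1, had 19.9, 20.7, 20.4 and 15.7 FPKM in the estradiol libraries, against 20.3, 20.2, 16.2 and 21.2 FPKM in the control libraries. Both libraries that stand apart were low for this gene, and the log2 fold change was -0.023 ± 0.12 (SE; unadjusted limma p 0.851).

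**Figure D3:**
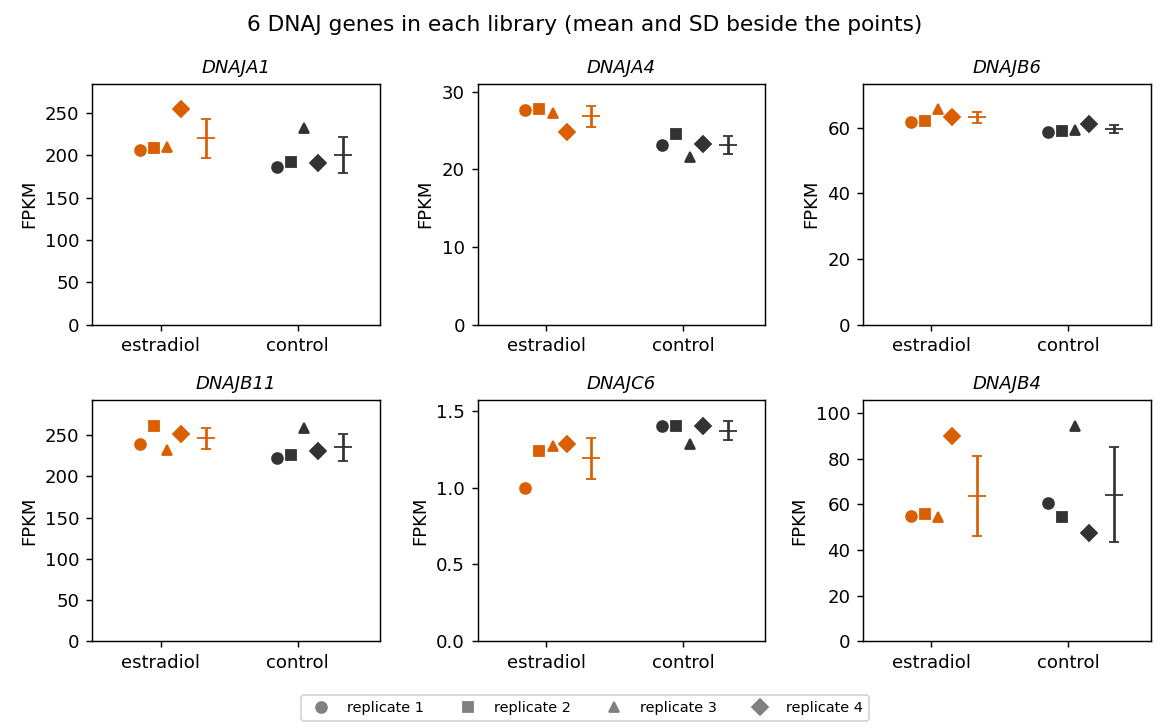
FPKM of 6 DNAJ genes in each library, with estradiol on the left and control on the right of each panel, a marker shape for each replicate number, and the group mean and SD beside the points. The axes start at 0. DNAJA4 and DNAJB6 lie higher in all 4 estradiol libraries, DNAJC6 lower, DNAJA1 and DNAJB11 overlap, and in DNAJB4 estradiol library 4 and control library 3 stand far above the others.

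In subfamily B, DNAJB6 was the member whose groups did not overlap. DNAJB6, a suppressor of polyglutamine aggregation, had 61.8, 62.0, 65.5 and 63.2 FPKM in the estradiol libraries, against 58.5, 58.8, 59.4 and 61.2 FPKM in the control libraries. Every estradiol library was above every control library, by a narrow margin, and neither library that stands apart was extreme. The mean was 63.1 ± 1.71 FPKM in estradiol libraries and 59.5 ± 1.19 FPKM in control libraries (SD, n = 4 each), and the log2 fold change of 0.085 ± 0.073 (SE) had an unadjusted limma p of 0.277. DNAJA4 and DNAJB6 were the 2 members of 36 (5.56%) whose estradiol values all lay higher, against 33 of 10720 genes (0.308%).

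Promoters of 37 of the 40 members were matched in RefSeq (GRCh38.p14) and searched on both strands from 250 bases before to 50 bases after the start. The heat shock element, the site of the factor that induces several J proteins on heat, was searched as units GAA, TTC and GAA with 2 bases between neighbours. It was found in 2 members, DNAJA1 and DNAJB6, against 0.487% of all 27305 promoters and 0.377% of the 8746 promoters of tested genes. The sequences of both, and of DNAJA4, the member with the smallest p, where these letters were not found, run from 250 bases before to 30 bases after the start, with the element in capitals. All 3 are on the plus strand, at chr9:33025023-33025302 for DNAJA1, chr7:157336754-157337033 for DNAJB6 and chr15:78263895-78264174 for DNAJA4.
DNAJA1: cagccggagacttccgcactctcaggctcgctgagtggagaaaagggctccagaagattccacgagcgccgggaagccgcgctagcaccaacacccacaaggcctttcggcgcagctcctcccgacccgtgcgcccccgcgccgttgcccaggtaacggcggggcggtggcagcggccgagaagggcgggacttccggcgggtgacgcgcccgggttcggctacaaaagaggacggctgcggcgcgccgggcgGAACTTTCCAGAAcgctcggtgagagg
DNAJB6: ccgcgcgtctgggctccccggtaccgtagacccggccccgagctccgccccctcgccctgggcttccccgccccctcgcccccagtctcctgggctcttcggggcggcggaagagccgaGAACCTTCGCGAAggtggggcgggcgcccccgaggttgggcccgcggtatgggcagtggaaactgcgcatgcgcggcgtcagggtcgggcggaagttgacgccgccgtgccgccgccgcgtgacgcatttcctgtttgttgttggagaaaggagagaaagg
DNAJA4: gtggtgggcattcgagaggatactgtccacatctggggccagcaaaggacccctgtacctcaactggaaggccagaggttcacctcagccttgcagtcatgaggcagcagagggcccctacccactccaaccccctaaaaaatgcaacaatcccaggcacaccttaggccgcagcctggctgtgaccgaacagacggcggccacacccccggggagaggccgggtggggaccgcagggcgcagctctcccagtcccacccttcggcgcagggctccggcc

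The element reads GAACTTTCCAGAA in DNAJA1, beginning at base 4 of the transcript, and GAACCTTCGCGAA in DNAJB6, beginning 131 bases before the start. These are matches of letters, and no binding was measured. The estrogen response element, GGTCA and TGACC with 3 bases between them, was found in 0 of the 37 members, against 0.0659% of all promoters, and the ER stress response element, CCAAT and CCACG with 9 bases between them, in 0, against 0.0806%. The cyclic AMP response element TGACGTCA was found in 1 member, DNAJC27, against 1.98% of all promoters. The letters CCAAT, which also begin the ER stress element, were found in 14 of the 37 members, against 35.7% of all promoters.

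The remaining members of subfamily B overlapped between the groups. DNAJB11 had 239, 261, 232 and 251 FPKM in the estradiol libraries, against 222, 226, 259 and 231 FPKM in the control libraries. Control library 3 is the high one in its group, and without it and estradiol library 4 the groups did not overlap. The log2 fold change over all libraries was 0.068 ± 0.085 (SE; unadjusted limma p 0.439). Exons of DNAJB11 too overlap genes on the opposite strand, as do those of 16 of the 40 members in all. On either strand, exons of 21 members overlap another gene.

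DNAJB4, a cytosolic member also called HLJ1, had 54.8, 55.6, 54.6 and 89.9 FPKM in the estradiol libraries, against 60.7, 54.4, 94.3 and 47.3 FPKM in the control libraries. Estradiol library 4 and control library 3 are far above the rest, and the log2 fold change was 0.006 ± 0.23 (SE; unadjusted limma p 0.981). DNAJB2, which helps to deliver ubiquitinated clients to the proteasome, ran the other way in these libraries, with 38.0, 39.8, 34.2 and 24.2 FPKM in estradiol libraries, against 33.3, 33.1, 25.5 and 34.9 FPKM in control libraries. Its groups overlap, and its log2 fold change was 0.085 ± 0.16 (SE; unadjusted limma p 0.614). Without estradiol library 4 and control library 3 it was 0.14 ± 0.061 (SE), with an unadjusted limma p of 0.0527 and an adjusted p of 0.992. The groups of DNAJB2 still overlapped there.

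DNAJB12 and DNAJB14 are ER-membrane proteins with the J domain in the cytosol. DNAJB12 had 19.6, 19.3, 18.8 and 14.0 FPKM in the estradiol libraries, against 20.1, 19.8, 14.2 and 19.5 FPKM in the control libraries. DNAJB14 had 9.14, 9.0, 8.91 and 13.0 FPKM in the estradiol libraries, against 9.84, 9.6, 14.4 and 7.45 FPKM in the control libraries. The pair moved in opposite directions in the libraries that stand apart, low for DNAJB12 and high for DNAJB14, and their log2 fold changes were -0.033 and -0.021 (unadjusted limma p 0.823 and 0.91). DNAJB5, the lowest tested member of subfamily B, averaged 2.95 ± 0.561 FPKM in estradiol libraries and 2.84 ± 0.599 FPKM in control libraries (SD, n = 4 each).

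Subfamily C held 1 member without overlap between the groups. DNAJC6, or auxilin, which helps HSP70 to strip clathrin from vesicles, had 0.994, 1.24, 1.27 and 1.28 FPKM in the estradiol libraries, against 1.4, 1.4, 1.28 and 1.4 FPKM in the control libraries. All estradiol libraries were lower, but the highest of them and the lowest control library are equal to 3 digits. The gene rests on 244 to 350 reads per library. The mean was 1.19 ± 0.135 FPKM in estradiol libraries and 1.37 ± 0.061 FPKM in control libraries (SD, n = 4 each), and the log2 fold change of -0.11 ± 0.075 (SE) had an unadjusted limma p of 0.166. At this low level the size depends on the pseudocount, and with 0.1 in place of 1 it was -0.19. DNAJC6 was the 1 member of 36 (2.78%) whose estradiol values all lay lower, against 24 of 10720 genes (0.224%).

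The C members of the ER overlapped between the groups. DNAJC3 had 68.0, 63.9, 71.4 and 86.5 FPKM in the estradiol libraries, against 65.3, 71.1, 87.9 and 67.2 FPKM in the control libraries. Estradiol library 4 and control library 3 are the high ones and nearly level, and the log2 fold change was -0.008 ± 0.13 (SE; unadjusted limma p 0.95). DNAJC1, an ER-membrane protein, had 42.2, 41.7, 41.9 and 46.4 FPKM in the estradiol libraries, against 44.5, 40.9, 43.4 and 41.3 FPKM in the control libraries. Its groups overlap, with a log2 fold change of 0.016 (unadjusted limma p 0.842). DNAJC10, the ER disulfide reductase ERdj5, averaged 31.9 ± 8.2 FPKM in estradiol libraries and 31.1 ± 7.72 FPKM in control libraries (SD, n = 4 each).

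DNAJC7 and DNAJC8 were the other high members of the subfamily. DNAJC7, which binds both HSP70 and HSP90, had 47.2, 45.8, 49.8 and 49.0 FPKM in the estradiol libraries, against 41.4, 45.4, 44.9 and 47.9 FPKM in the control libraries. Only control library 4 reaches the estradiol range, and the log2 fold change was 0.093 ± 0.081 (SE; unadjusted limma p 0.278). DNAJC8, a splicing-associated nuclear protein, had 57.2, 50.9, 55.4 and 57.2 FPKM in the estradiol libraries, against 50.4, 54.3, 55.0 and 53.3 FPKM in the control libraries, with overlapping groups and a log2 fold change of 0.05 (unadjusted limma p 0.547).

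For the other C members given here by mean, the group means differed by less than the SD within either group. Among mitochondrial members, DNAJC19, a protein-import factor, averaged 8.13 ± 0.93 FPKM in estradiol libraries and 8.08 ± 1.3 FPKM in control libraries, and DNAJC15, its relative, 3.53 ± 0.472 FPKM in estradiol libraries and 3.3 ± 0.377 FPKM in control libraries (SD, n = 4 each). DNAJC9, a histone chaperone, averaged 14.6 ± 0.797 FPKM in estradiol libraries and 14.5 ± 0.543 FPKM in control libraries. DNAJC13, an endosomal protein, averaged 21.2 ± 3.01 FPKM in estradiol libraries and 21.1 ± 2.99 FPKM in control libraries. DNAJC5, the cysteine string protein of secretory vesicles, averaged 32.1 ± 5.17 FPKM in estradiol libraries and 32.2 ± 4.61 FPKM in control libraries. The log2 fold changes of all 25 tested C members lay between -0.11 and 0.098, a range narrower than the interval of most single members. The upper end belongs to DNAJC21, a ribosome-biogenesis factor, with 8.25 ± 0.989 FPKM in estradiol libraries and 7.67 ± 1.18 FPKM in control libraries (SD, n = 4 each).

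Without estradiol library 4 and control library 3, more members separated. The estradiol values all lay higher for 8 of 36 members (22.2%), against 493 of 10720 genes (4.6%), and all lower for 1 member, DNAJC6, against 528 genes (4.93%). The 8 were DNAJA1, DNAJA2 and DNAJA4 of 4 in subfamily A, DNAJB6 and DNAJB11 of 7 in subfamily B, and DNAJC14, DNAJC16 and DNAJC21 of 25 in subfamily C. In a limma fit of these 6 libraries 0 members and 0 genes (0.0%) passed the adjusted threshold. The members with an unadjusted p under 0.05 there were DNAJA1, DNAJA4 and DNAJC21, among 416 genes (3.88%). The difference between subfamilies was not tested, since the members were known beforehand and share libraries.

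The spread within the groups followed the base composition of the transcripts. Estradiol library 4 and control library 3 both lay above the other 6 for 15 of 36 members (41.7%), against 34.6% of genes, and both below for 10 (27.8%), against 43.9%. The tested members had a lower median GC content (44.0%) than the genes tested with a GC value (49.5%), so these shares are not compared at equal GC content. The 15 members had reference transcripts with 37.3% to 46.3% GC (median 41.2%), and the 10 had 52.2% to 60.2% GC (median 55.5%). DNAJB4, at 40.9% GC, was 0.75 higher on the log2(FPKM + 1) scale in the pair of libraries, and DNAJB2, at 60.2% GC, was 0.50 below the other 6 (-0.50). DNAJB6, at 49.2% GC, differed by 0.001. The rank correlation between GC content and this difference was -0.904 across the 36 members, and -0.88 across the 10250 genes with a GC value. It is a description across genes of the same 8 libraries, with no p. Whether base composition or something that moves with it set these 2 libraries apart was not tested. With the trend on GC content removed from each library, DNAJA1 had a log2 fold change of 0.12 (unadjusted limma p 0.0216), and 0 members passed adjustment.

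**Figure D4:**
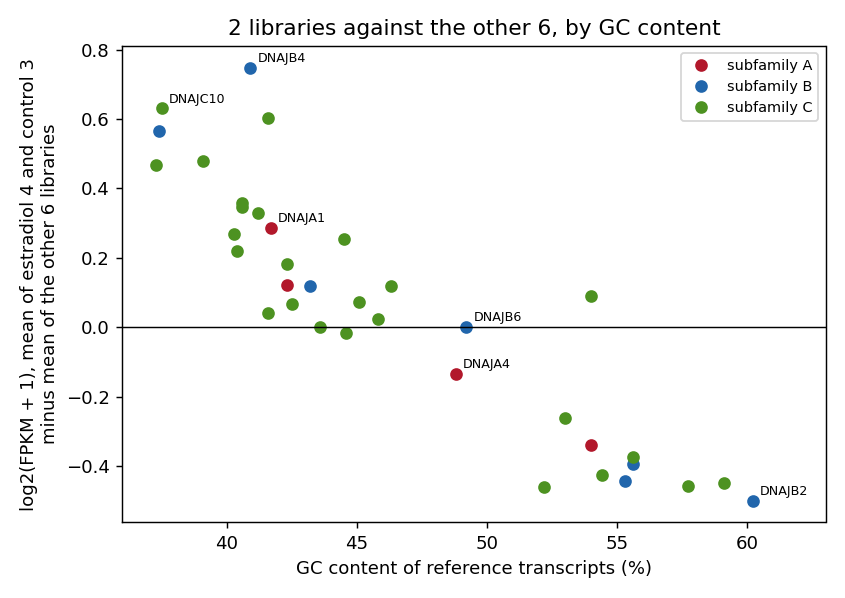
Mean log2(FPKM + 1) of estradiol library 4 and control library 3 minus that of the other 6 libraries, against GC content of the reference transcripts in percent, for the 36 tested DNAJ genes coloured by subfamily. The points fall along a line that descends to the right, with DNAJB4 at the top left, DNAJB2 at the bottom right and DNAJA4 and DNAJB6 near the middle.

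The 4 members under 1 FPKM are DNAJB7, DNAJB8, DNAJB13 and DNAJC22. DNAJB8, known from testis, had 1 read in estradiol library 3 and 0 in all others. DNAJB13, an axoneme protein of cilia and sperm, had 0 to 7 reads per library. DNAJB7 had 25 reads in estradiol library 2, at 0.292 FPKM, and at most 0.0199 FPKM in the other estradiol libraries and 0.0104 FPKM in the control libraries. It lies within XPNPEP3, whose exons overlap it on the opposite strand, so its reads are uncertain, and an exact two-sided permutation test gave p = 0.257. DNAJC22 averaged 0.0728 ± 0.0329 FPKM in estradiol libraries and 0.101 ± 0.0269 FPKM in control libraries (SD, n = 4 each; exact two-sided permutation test, p = 0.229). With 4 libraries a group the smallest p this test can give is 0.0286.

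The HSP70 system around the family showed 0 genes past the adjusted threshold as well. Of 16 HSP70 and HSP110 chaperones 14 were tested, and 12 had a positive log2 fold change, with a median of 0.093 against -0.000471 over all genes. HSPA5, the ER chaperone BiP that DNAJB11 and DNAJC3 serve, averaged 3288 ± 102 FPKM in estradiol libraries and 3095 ± 173 FPKM in control libraries (SD, n = 4 each; log2 fold change 0.089, unadjusted limma p 0.252). HSPA1B, a heat-inducible HSP70, averaged 333 ± 37.6 FPKM in estradiol libraries and 284 ± 34.7 FPKM in control libraries (SD, n = 4 each; log2 fold change 0.23, unadjusted limma p 0.0819). HSPA1B has a near-identical neighbouring copy, so its counting is uncertain.

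Nucleotide exchange factors were split, with 5 of 10 positive and a median log2 fold change of 0.005. BAG3, the highest of them, averaged 159.5 ± 13.1 FPKM in estradiol libraries and 150.2 ± 22.0 FPKM in control libraries (SD, n = 4 each). Of the adaptors and HSP90 proteins, 8 of 8 were positive with a median of 0.051. HSP90AB1, the highest, averaged 692 ± 5.81 FPKM in estradiol libraries and 659.8 ± 22.5 FPKM in control libraries, and HSP90AA1 638 ± 136 FPKM in estradiol libraries and 557 ± 91.7 FPKM in control libraries (SD, n = 4 each). Of 12 partners of organelle J proteins 11 were tested and 8 were positive, with a median of 0.012. Among them PDIA3, an ER disulfide isomerase, averaged 513 ± 67.4 FPKM in estradiol libraries and 502 ± 31.9 FPKM in control libraries, and HSPD1, the mitochondrial HSP60, 298 ± 41.1 FPKM in estradiol libraries and 273 ± 40.9 FPKM in control libraries (SD, n = 4 each).

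Of 6 J-domain proteins outside the symbol rule or left out by it, 4 were positive, with a median log2 fold change of 0.031. DNAJB1, the main heat-inducible B member, averaged 149 ± 16.2 FPKM in estradiol libraries and 127 ± 9.59 FPKM in control libraries (SD, n = 4 each; log2 fold change 0.23 ± 0.11 SE, unadjusted limma p 0.0557). DNAJB9, the ER-lumen protein ERdj4, averaged 208 ± 42.3 FPKM in estradiol libraries and 209 ± 61.7 FPKM in control libraries (SD, n = 4 each). Both had overlapping groups over the 8 libraries, DNAJB1 through estradiol library 4. Without estradiol library 4 and control library 3 the groups of DNAJB1 did not overlap, at 156 ± 7.11 FPKM in estradiol libraries and 132 ± 0.129 FPKM in control libraries (SD, n = 3 each). In these libraries the estradiol values all lay higher for 493 of 10720 genes (4.6%), and no gene passed the adjusted threshold.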

How the data were processed

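RNA-seq of 4 estradiol and 4 control libraries was analysed. The authors deposited 1 table of FPKM values by gene symbol and library. Per the submitters' processing notes, fastp 0.20.1 and HTSeq were used; for the aligner, build, annotation and strand setting, nothing was given in the sources used here. FPKM steps were whole multiples of 1 read for 100.0% of 152348 values above 0 (relative tolerance 1e-06), which gave depths of 33421051 to 39899258 reads per library.

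Genes with a mean of at least 1 FPKM (10720) were fitted as log2(FPKM + 1) in limma 3.58.1 (R 4.3.3) with its trend option and no block, and two-sided p-values were adjusted by Benjamini-Hochberg over all genes (threshold 0.05). This scale understates changes of low genes. The fitting code was also run on simulated data with independent noise of equal SD for all genes. That simulation held no libraries that stand apart, so it does not show how the test performs on these. Members under the filter with at least 10 reads in a library had exact permutation tests over 70 relabellings. GC content and exon overlaps came from GENCODE 29 and promoters from RefSeq, both GRCh38, matched by symbol. Other steps ran in Python 3.11.15 (matplotlib 3.10.9, scipy 1.17.1, pandas 2.3.3, numpy 2.4.6).

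Members and lists were chosen with earlier results of these data known. Values per library are given for the 4 highest members of each subfamily, the 4 with the smallest p in each direction and those without overlap between groups; of other lists, the highest gene and that with the smallest p. DNAJC9, DNAJC10, DNAJC13, DNAJC15, DNAJC19, DNAJC21, DNAJC5 and DNAJB5 are given by mean, and the markers named were picked as examples. Of 18 alternatives, the effects are given in the closing section. Protein sequences were not used here.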

Additional observations from a re-analysis of the deposited data

Results flagged for a closer look

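Within each group of 4 libraries, a library was picked out when its gap to the nearest other took more of the group's range than Dixon's 95% critical value. Chance picks about 1 in 20 groups. Here 23 libraries were picked in 79 groups of DNAJ values, 12 of them estradiol library 4 and 7 control library 3. How often these libraries are picked over all genes was not computed. Over all 10720 genes tested, estradiol library 4 and control library 3 both lay above the other 6 for 34.6% and both below for 43.9%. For the 36 tested members these shares were 41.7% and 27.8%. The genes share these libraries and are not independent. No cause was tested.

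Both libraries were picked for 3 tested members in the same direction. DNAJA1 had 254 FPKM in estradiol library 4, against 206 to 210.0 FPKM in the other estradiol libraries, and 232 FPKM in control library 3, against 186 to 192 FPKM in the other control libraries. DNAJB12 had 14.0 FPKM in estradiol library 4 (others 18.8 to 19.6 FPKM) and 14.2 FPKM in control library 3 (others 19.5 to 20.1 FPKM). DNAJC21 had 9.73 FPKM in estradiol library 4 (others 7.64 to 7.92 FPKM) and 9.43 FPKM in control library 3 (others 7.0 to 7.2 FPKM).

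For other members 1 of these 2 libraries was picked, although the other one lay on the same side in most of them. Estradiol library 4 was picked as high for DNAJB4 at 89.9 FPKM, DNAJB14 at 13.0 FPKM, DNAJC1 at 46.4 FPKM, DNAJC10 at 44.2 FPKM and DNAJC25 at 18.6 FPKM. It was picked as low for DNAJA3 at 15.7 FPKM, DNAJA4 at 24.8 FPKM, DNAJC11 at 12.2 FPKM and DNAJC14 at 11.5 FPKM. Control library 3 was picked as high for DNAJA2 at 29.5 FPKM and as low for DNAJC5 at 25.3 FPKM. Of these 11 members, all except DNAJA4 and DNAJC1 had both libraries above or both below the other 6.

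DNAJC6 was low in estradiol library 1 at 0.994 FPKM and in control library 3 at 1.28 FPKM. DNAJC12 was high in control library 4 at 5.74 FPKM, against 4.75 to 4.78 FPKM in the other control libraries. Values near 0 were also picked: DNAJB7 at 0.292 FPKM in estradiol library 2 and 0.0104 FPKM in control library 3, and DNAJB8 at 0.00731 FPKM, a single read, in estradiol library 3.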

How the results depend on the processing

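In all 18 alternatives 0 members and 0 genes had an adjusted p under 0.05, while 4 to 437 genes had an unadjusted limma p under 0.05. The median log2 fold change of subfamily A stayed above 0 in all 18 (0.064 to 0.13 with 1 library left out in turn, 0.081 with the GC trend removed), as did that of subfamily B (0.015 to 0.084 with 1 library left out). That of subfamily C ran from -0.019 to 0.065 and was above 0 in 17. Single members near 0 changed sign. With 1 library left out in turn, DNAJA3 ran from -0.11 to 0.065, DNAJB2 from -0.014 to 0.24, DNAJB4 from -0.17 to 0.21, DNAJB12 from -0.15 to 0.075, DNAJB14 from -0.15 to 0.14, DNAJC1 from -0.019 to 0.038 and DNAJC3 from -0.095 to 0.084. DNAJC3 was 0.005 after quantile normalization and DNAJB4 -0.011 with the GC trend removed. Without both libraries that stand apart, DNAJB14 was 0.017 and DNAJC1 -0.010. The causes were not tested. DNAJA4 kept its sign in all alternatives (0.18 to 0.24 with 1 library left out), though its unadjusted p was above 0.05 under several of them. DNAJC6 has no value with a filter at 5 FPKM.

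With the replicate number as a block, 0 genes and 0 members were called, 11 genes had an unadjusted p under 0.05, the subfamily medians were the same as without it, and DNAJA4 had an unadjusted limma p of 0.118. Same-numbered libraries correlated at 0.616, 0.0728, -0.478 and -0.737 in their deviations from the group means. The 2 libraries that stand apart carry different numbers and weigh on these values. The correlations therefore cannot show whether same-numbered libraries were paired.

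Depth limits the 4 members under 1 FPKM, with at most 25 reads in a library. With the GC trend removed, 0 of the 36 tested members had an adjusted limma p under 0.05. Without estradiol library 4 and control library 3 there were also 0. At an unadjusted limma p under 0.05 these fits held 211 and 416 genes, with 3 members in each. The fit of all 8 libraries with the GC trend kept held 26 genes and 1 member. Whether the number of libraries or the GC-linked spread limits what can be detected was not tested.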
